A study of Mus musculus with 18 samples.

Results

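LPS-treated peritoneal macrophages of Smim30-mutant mice that had received a control adenovirus (Mut-Control, 3 libraries) were compared with LPS-treated peritoneal macrophages of Smim30-mutant mice whose protocol names no virus (Mut, 3 libraries). The groups were taken from the sample titles, which give these 6 of the 18 libraries of the series, and every gene in them was examined. Both groups carried the SMIM30 mutation on the labelled strain C57BL/6J, and both were exposed to LPS, the lipopolysaccharide of Gram-negative bacteria, at 5 ng/ml for 6 h before RNA was taken. Mut-Control wells were given the control adenovirus 6 h after the cells were seeded and held it for 24 h before LPS, whereas for Mut wells no time between seeding and LPS is stated. Virus, time in culture and the experiment to which a library belonged therefore coincide, and their shares in any difference cannot be told apart. A further pair shares no library with the first, namely mutant macrophages given an adenovirus for SMIM30 overexpression (Mut-SMIM30-OE, 3 libraries, with the same virus schedule) and wild-type macrophages without virus (WT, 3 libraries). In that pair the labelled Smim30 genotype and the overexpression vector differ as well, so its values are set beside the first pair only as a description. The other 6 libraries came from IC-21, a mouse macrophage cell line, and were not used in the comparisons. The nature of the mutation, the promoter of the vectors and whether the triplicates came from separate mice are not given in the sources used here, so that p-values cover the spread among these libraries and no more.

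Macrophages detect LPS through the receptor TLR4, which signals through one set of adaptors to NF-kB and the first inflammatory cytokines, and through another to interferon beta and the genes that interferon induces. Resident macrophages of the peritoneal cavity are kept in their state by signals of the cavity, among them retinoic acid acting through the transcription factor Gata6, and they are known to change their gene expression once they are plated. Adenovirus enters cells through integrins and scavenger receptors, and its DNA can be detected by sensors in endosomes and in the cytosol.

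The libraries held 12276683, 10344922 and 10172818 assigned read pairs in Mut-Control and 7947364, 9020990 and 12246311 in Mut, so that 3 read pairs, the detection limit used here, correspond to 0.244 to 0.295 CPM (read pairs scaled to library size) in Mut-Control and 0.245 to 0.378 CPM in Mut. Ribosomal RNA genes took 0.225 to 0.398% of the counts in Mut-Control and 0.400 to 1.03% in Mut. In a principal component analysis of the 1000 most variable genes over the 12 macrophage libraries, the first component held 89.3% of the variance and the second 2.6%. Scores on the first component (log2 CPM, centred) of the Mut-Control libraries lay between 33.7 and 36.6 and those of the Mut libraries between -40.6 and -36.4, with Mut-SMIM30-OE between 39.3 and 40.3 and WT between -37.4 and -35.7. Genes that mark macrophages in general summed to similar levels, 14000.0 to 14310.0 CPM in Mut-Control and 13670.0 to 14250.0 CPM in Mut. Some markers of other peritoneal cells moved with the groups. Mesothelial and fibroblast markers summed to 416 to 433 CPM in Mut-Control and 863 to 875 CPM in Mut, with 8 of 9 tested members lower and most of the sum in Pdpn, which activated macrophages also express. Neutrophil markers summed to 103 to 106 CPM in Mut-Control and 181 to 201 CPM in Mut, mostly from Csf3r. Csf3r and S100a8 fell and Mmp8 rose, while Ly6g, S100a9, Elane and Retnlg were at 0 in both. Mast cell markers summed to 4.79 to 6.36 CPM in Mut-Control and 14.1 to 16.6 CPM in Mut. Of these, Hdc, Kit and Tpsb2 fell, while Cpa3 and Cma1 did not pass. Hdc is also counted below among the genes of large peritoneal macrophages. T and NK cell markers summed to 0.867 to 2.00 CPM in Mut-Control and 1.54 to 2.13 CPM in Mut. Cd3d, Cd3g and Ncr1 were at 0 in both groups. B cell markers summed to 261 to 286 CPM in Mut-Control and 194 to 207 CPM in Mut, where Cd22 and Cd37 rose and Cd79a, Igkc and Ighm fell. Eosinophil markers summed to 8.54 to 11.5 CPM in Mut-Control and 1.67 to 3.47 CPM in Mut through Siglecf, with Epx and Prg2 at 0 in both. Dendritic cell markers summed to 136 to 138 CPM in Mut-Control and 131 to 166 CPM in Mut, and endothelial and platelet markers to 130 to 132 CPM in Mut-Control and 185 to 190 CPM in Mut. Of the latter, Vwf and Pf4 fell, while Kdr rose, with 27.0 to 33.4 CPM in Mut-Control and 5.77 to 6.72 CPM in Mut. The part these cells have in the results was not tested, and in bulk RNA fewer cells of a type and less RNA per cell cannot be told apart.

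The gene the annotation lists as 2610001J05Rik, which is known as Smim30 and encodes a small membrane protein (GRCm38, chr6:13867735-13871518, minus strand), had 44.95, 42.04 and 42.98 CPM in Mut-Control and 43.1, 53.4 and 51.5 CPM in Mut. The groups overlapped, and the difference was small (edgeR log2 fold change -0.19 ± 0.08 SE, adjusted p = 0.0418). It lost that call in 9 of 14 alternative analyses, with adjusted p from 0.0556 to 0.211. In the other pair it had 50.6, 52.2 and 54.7 CPM in Mut-SMIM30-OE and 44.8, 52.02 and 50.4 CPM in WT and was not called (edgeR log2 fold change 0.10, adjusted p = 0.203), so that no higher level of this transcript was called with the overexpression vector. Without the nature of the mutation or of the overexpressed sequence, these levels do not check the genotype labels.

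A majority of the genes tested differed between the virus-treated, longer-cultured and the uninfected mutant macrophages. Of 12798 genes tested, 6862 passed an edgeR adjusted p of 0.05 (53.6%), with 3472 higher in Mut-Control (27.1%) and 3390 lower (26.5%). A change of at least 2-fold was found for 1977 of them (15.4%), of which 911 were higher (7.12%) and 1066 lower (8.33%), and a change of at least 4-fold for 221 higher and 354 lower genes. The 3 libraries of one group all lay above the 3 of the other for 7557 genes (59.0%). The median log2 fold change over all genes tested was 0.00 after TMM scaling, which centres the log2 fold changes near 0. The counts for the gene groups that follow are read against 27.1% higher and 26.5% lower among all genes, and against that median. A change written as a number after rose by or fell by is the size of the log2 fold change, and the median of a gene group is that of its log2 fold changes.

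**Figure D1:**
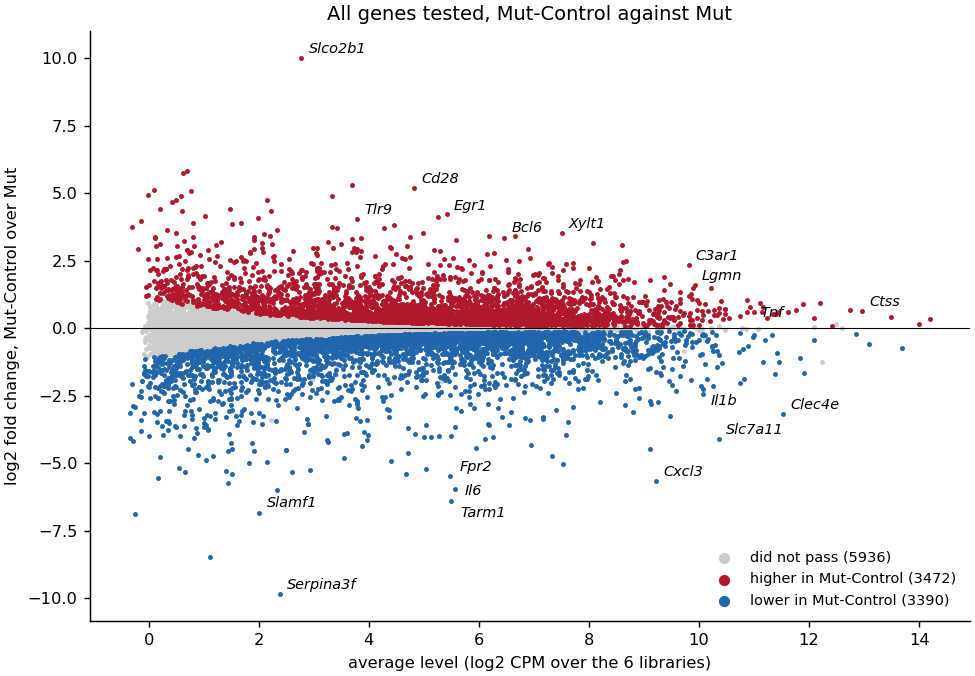
Log2 fold change (Mut-Control over Mut) plotted against average log2 CPM for 12798 genes, one point a gene, coloured by whether the gene was higher (3472), lower (3390) or did not pass edgeR's adjusted p of 0.05 (5936). The labelled genes Cd28, Egr1 and Tlr9 lie among the largest rises and Il6, Cxcl3 and Tarm1 among the largest falls.

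The 15 largest rises among the better-expressed genes included receptors, signalling proteins and a transporter. Slco2b1, an organic anion transporter, had no read pair in any Mut library and 413 in Mut-Control, which is at least 122.6-fold higher when Mut is set to 3 counts over the group. Cd28, known as a costimulatory receptor of T cells, had 49.9, 54.2 and 52.7 CPM in Mut-Control and 1.67, 1.23 and 1.4 CPM in Mut and was 36.6-fold higher (edgeR log2 fold change 5.19 ± 0.14 SE, adjusted p = 2.44e-24). The groups lay far apart, and the T cell genes Cd3d and Cd3g had no counts in either. Tlr9, the endosomal receptor for unmethylated CpG DNA, had 23.1, 24.1 and 25.7 CPM in Mut-Control and 1.79, 1.46 and 1.24 CPM in Mut (edgeR log2 fold change 4.05 ± 0.17 SE, adjusted p = 5.23e-19). Every Mut-Control library stood above every Mut library. Egr1, an immediate early transcription factor, had 83.1, 77.2 and 72.2 CPM in Mut-Control and 3.33, 3.47 and 5.03 CPM in Mut (edgeR log2 fold change 4.25 ± 0.11 SE, adjusted p = 3.42e-24). Rasgrp3 and Ksr2, which activate Ras and scaffold the ERK cascade, rose with log2 fold changes of 4.91 and 3.71. Pdgfc, a platelet-derived growth factor, rose by 4.75 on the log2 scale. Adra1a, the alpha-1A adrenergic receptor, had 57.01, 53.4 and 57.7 CPM in Mut-Control and 4.36, 5.04 and 5.03 CPM in Mut, again without overlap (edgeR log2 fold change 3.53 ± 0.11 SE, adjusted p = 7.89e-23). Xylt1, which starts the glycosaminoglycan chains of proteoglycans, had 307 to 346 CPM in Mut-Control and 25.5 to 32.02 CPM in Mut and was 11.5-fold higher. The other genes among the 15 largest rises were Lrrc14b (5.32 on the log2 scale, and 6.96 without Mut replicate 3), Arhgap19 (4.13), Tcp11l2 (3.82), Zdhhc14 (3.77), Cdca7l (3.74) and Sh2d1b1 (3.66).

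The 15 largest falls included cytokines, receptors for bacterial products and acute phase proteins. Serpina3f, a serine protease inhibitor, had no read pair in Mut-Control and 306 in Mut, which is at least 114.5-fold lower against 3 counts over the group. Slamf1, a receptor of activated leukocytes, had 2 read pairs in Mut-Control and 234 in Mut, and the 95% counting interval of the Mut to Mut-Control ratio ran from 36.0 to 1090.9. Tarm1, an activating receptor of myeloid cells, had 0.958, 1.16 and 1.16 CPM in Mut-Control and 98.2, 94.8 and 83.3 CPM in Mut and was 83.6-fold lower (edgeR log2 fold change -6.38 ± 0.13 SE, adjusted p = 4.44e-27). It was low in every Mut-Control library and high in every Mut library. Fpr1 and Fpr2, receptors for bacterial formyl peptides, both fell without overlap. Fpr1 had 1.28 to 2.41 CPM in Mut-Control and 60.9 to 73.7 CPM in Mut (log2 fold change -5.22), and Fpr2 had 1.64 to 2.22 CPM in Mut-Control and 79.95 to 106 CPM in Mut (log2 fold change -5.46). Cd38, an enzyme that consumes NAD, had 11.02, 11.8 and 10.4 CPM in Mut-Control and 399.7, 356 and 337 CPM in Mut (edgeR log2 fold change -5.03 ± 0.07 SE, adjusted p = 4.12e-27). Hp, the haemoglobin-binding haptoglobin, and Lcn2, which binds bacterial siderophores, fell by 5.39 and 4.81 on the log2 scale. Il1f9, the cytokine IL-36 gamma, had 0.0964 to 0.386 CPM in Mut-Control and 7.82 to 10.5 CPM in Mut. Shisa3 fell with a log2 fold change of -5.25, Trim30c with -4.91, Serpina3g with -5.33 and Olfr56 with -5.99. Olfr56 came to -7.41 without Mut-Control replicate 1, and its exons overlap on the same strand with those of Ifi47, an interferon-inducible GTPase that also fell. Serpina3g shares 55.6% of its exonic length with another gene on the same strand. Counts within the Serpina3 and Trim30 families may be split between near-identical copies.

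The LPS-induced cytokines were mostly lower after control virus and longer culture. Of 18 tested members of the list, 14 fell and 3 rose, with a median log2 fold change of -1.55 against 0.00 for all genes. Il6, the cytokine of the acute phase response, had 1.68, 1.35 and 1.54 CPM in Mut-Control and 119.95, 92.4 and 79.95 CPM in Mut and was 62.3-fold lower (edgeR log2 fold change -5.96 ± 0.28 SE, adjusted p = 4.72e-06). It was low in all Mut-Control libraries and high in all Mut libraries. Il1b, the pyrogenic cytokine that caspase-1 processes, had 404, 378 and 344 CPM in Mut-Control and 2055, 1904 and 1395 CPM in Mut (edgeR log2 fold change -2.24 ± 0.19 SE, adjusted p = 0.000593). Its groups did not overlap, and Mut replicate 1 was the highest library. Il12a and Il12b, the subunits of interleukin-12, fell with log2 fold changes of -4.03 and -2.23. Il1a and Il18, both of the interleukin-1 family, fell by 2.44 (log2) and 2.31, and Tnfsf15, a TNF family ligand, by 2.95. Tnf itself had 1937, 1926 and 1747 CPM in Mut-Control and 2375, 2152 and 2076 CPM in Mut. It was 1.17-fold lower, without overlap (edgeR log2 fold change -0.23 ± 0.05 SE, adjusted p = 0.000965), a far smaller fall than that of Il6. Lif, a cytokine of the interleukin-6 family, rose by 1.47 (log2), Tnfsf9, the ligand of 4-1BB, by 1.22, and Il23a, a subunit of interleukin-23, by 0.69. Csf2, the granulocyte-macrophage colony-stimulating factor, was the 1 tested member that did not pass (log2 fold change -0.69, edgeR adjusted p = 0.118). In 13 of the 14 cytokines that fell, Mut replicate 1 was the highest of the Mut libraries, against 42.8% of all genes that fell. Without that library 13 fell and 3 rose, and the median was -1.40.

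Chemokines were also mostly lower, 16 of 21 tested being lower and 2 higher, with a median of -1.54 (-1.50 without Mut replicate 1). Cxcl3, a neutrophil attractant, had 24.1, 23.4 and 21.6 CPM in Mut-Control and 1208, 1182 and 1125 CPM in Mut and was 50.5-fold lower (edgeR log2 fold change -5.66 ± 0.05 SE, adjusted p = 1.85e-35). The replicates of each group lay close together and the groups far apart. Cxcl5, another neutrophil attractant, fell by 3.36, and Ccl22, a ligand of Ccr4, by 2.65 on the log2 scale. Ccl5, which attracts T cells and monocytes, had 99.97, 104 and 88.3 CPM in Mut-Control and 864, 655 and 607 CPM in Mut (edgeR log2 fold change -2.85 ± 0.18 SE, adjusted p = 0.000224). Cxcl10, an interferon-induced T cell attractant, had 21.5, 18.6 and 15.2 CPM in Mut-Control and 86.5, 69.1 and 59.7 CPM in Mut (edgeR log2 fold change -1.93 ± 0.19 SE, adjusted p = 0.000281), without overlap. Cxcl9, the other interferon-induced ligand of Cxcr3, fell by 4.47 (log2), Ccl9 by 2.14, Ccl3 by 1.89 and Cxcl2 by 0.93. The neutrophil attractant Cxcl1 and the monocyte attractants Ccl2 and Ccl7 did not pass (Cxcl1 -0.09, Ccl2 -0.19 and Ccl7 -0.36 as log2 fold changes, edgeR adjusted p = 0.077, 0.583 and 0.206). Cxcl14 and Ccl6 rose, by 1.44 (log2) and 0.56.

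The receptors for chemoattractants moved the other way more often than not, with 7 of 11 higher and 4 lower and a median of 0.93. C3ar1, the receptor for complement fragment C3a, had 1489, 1499 and 1488 CPM in Mut-Control and 293, 307 and 284 CPM in Mut (edgeR log2 fold change 2.35 ± 0.04 SE, adjusted p = 6.29e-29). Replicates lay close together and the groups did not overlap. Cxcr4, the receptor for Cxcl12, had 129 to 134 CPM in Mut-Control and 16.3 to 20.8 CPM in Mut and was 6.98-fold higher. C5ar2 rose by 2.44 (log2), Ccr2, the receptor for Ccl2, by 1.82 and Ccr1 by 0.93. Next to the formyl peptide receptors, Cmklr1, the chemerin receptor, fell by 1.87 (log2) and Ccrl2 by 0.34.

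**Figure D2:**
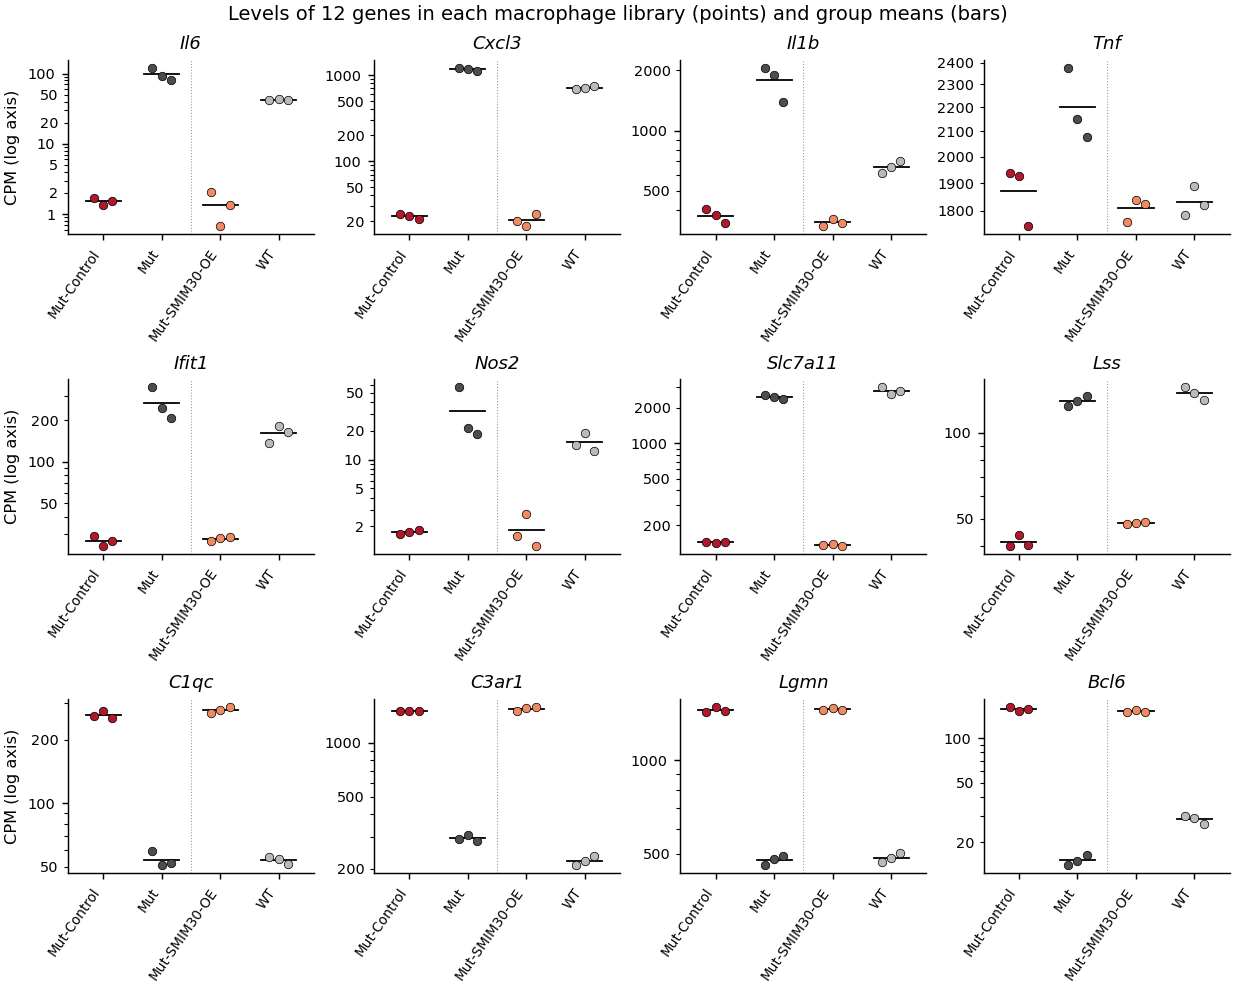
CPM on a log axis for 12 genes in each library of Mut-Control, Mut, Mut-SMIM30-OE and WT, with points for libraries and bars for the mean of 3. Il6, Cxcl3, Il1b, Ifit1, Nos2, Slc7a11 and Lss are lower in both virus groups, C1qc, C3ar1, Lgmn and Bcl6 are higher in both, and Tnf lies at similar levels in all 4 groups.

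Interferon-induced genes were lower in Mut-Control almost as a whole. Of 45 genes in the type I interferon list that were tested, 41 fell and 2 rose, with a median log2 fold change of -1.59. Ifit1, which binds RNA that lacks a host cap, had 29.1, 24.7 and 26.8 CPM in Mut-Control and 346, 244 and 207 CPM in Mut and was 9.77-fold lower (edgeR log2 fold change -3.29 ± 0.27 SE, adjusted p = 0.000586). Mut replicate 1 was the highest library, and the lowest Mut library was still several times above every Mut-Control library. Isg15, a ubiquitin-like protein, had 19.3, 18.5 and 16.2 CPM in Mut-Control and 149, 124 and 113 CPM in Mut (edgeR log2 fold change -2.82 ± 0.11 SE, adjusted p = 1.25e-09). Ifit2 and Ifit3, relatives of Ifit1, fell by 3.35 (log2) and 3.01, Cmpk2, a mitochondrial nucleotide kinase, by 3.41, and Zbp1, a sensor of Z-form nucleic acids, by 3.56. Mx1 and Rsad2, which limit virus replication, fell by 2.44 (log2) and 2.24. Oas3, which makes the activator of RNase L, and Irf7, a regulator of interferon genes, did not pass (Oas3 log2 fold change -0.51, edgeR adjusted p = 0.141; Irf7 log2 fold change 0.03, edgeR adjusted p = 0.929). Ly6e and Ifi27l2a rose, by 1.64 (log2) and 1.05.

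The interferon-inducible GTPases, which act at the vacuoles of intracellular pathogens, fell in 14 of 15 cases with none higher, and their median was -3.04. Gbp2 had 148, 139 and 134 CPM in Mut-Control and 1129.5, 939.5 and 885 CPM in Mut (edgeR log2 fold change -2.81 ± 0.11 SE, adjusted p = 7.06e-06). Its groups did not overlap and Mut replicate 1 was again highest. Gbp7 fell by 3.46 (log2), Gbp3 by 3.04, Ifi47 by 3.57, Iigp1 by 4.52 and Tgtp2 by 3.54. Gbp9 alone did not pass (log2 fold change -0.38, edgeR adjusted p = 0.0863). Gbp7 shares 11.3% of its exonic length with another gene on the same strand, members of the Gbp, Tgtp and Ifit families are similar in sequence, and their counts may be divided between copies. Among members that fell, Mut replicate 1 was the highest Mut library for 40 of 41 interferon response genes and 12 of 14 GTPases. With that library left out, the medians were -1.48 for the interferon response, where 42 fell and 3 rose, and -2.90 for the GTPases.

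Since the interferon, cytokine and lysosomal genes each moved largely in 1 direction, promoters of some of these genes that hold the motif of the pathway are shown. Sequences are from RefSeq promoter windows of build GRCm38.p6, 250 bases before to 50 after each transcript start, which were found for 8886 of the genes tested. The core of the interferon-stimulated response element, GAAA, any 2 bases and GAAA again, was searched on both strands and was in the windows of 360 of those 8886 genes (4.05%). It was in 18 of 32 interferon response genes with a window (56.2%), in 9 of 10 interferon-inducible GTPases (90.0%), in 73 of 692 genes lower by at least 2-fold (10.5%) and in 29 of 663 genes higher by at least 2-fold (4.37%). The stretches run 5′ to 3′ along the gene, from up to 60 bases before the first match to 20 bases after the last, with every match in capitals, read on either strand (on the opposite strand the motif reads TTTC, 2 bases, TTTC). The Isg15 stretch is chr4:156200855-156200956 (minus strand), that of Ifit1 chr19:34640725-34640833, that of Ifit3 chr19:34583313-34583436 and that of Gbp2 chr3:142620544-142620633 (all plus strand).
Isg15: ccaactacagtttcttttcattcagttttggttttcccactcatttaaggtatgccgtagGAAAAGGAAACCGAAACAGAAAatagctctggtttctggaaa
Ifit1: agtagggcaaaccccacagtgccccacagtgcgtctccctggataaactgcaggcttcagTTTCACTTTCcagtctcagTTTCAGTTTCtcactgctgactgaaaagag
Ifit3: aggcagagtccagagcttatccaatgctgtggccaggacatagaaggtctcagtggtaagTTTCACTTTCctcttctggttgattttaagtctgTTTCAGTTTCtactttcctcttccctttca
Gbp2: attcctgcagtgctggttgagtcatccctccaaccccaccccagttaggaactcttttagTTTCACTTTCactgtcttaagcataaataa
The matches begin 78, 72 and 66 bases before the start in Isg15, where they overlap, 104 and 85 bases before it in Ifit1, 156 and 122 in Ifit3, and 59 in Gbp2.

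One form of the kappa B site bound by NF-kB, GGG, any 2 bases and TTTCC, was in 2.07% of the genes with a window, in 4 of 14 chemokines (28.6%), in 2 of 12 cytokines (16.7%), in 19 of 663 genes higher by at least 2-fold (2.87%) and in 21 of 692 genes lower by at least 2-fold (3.03%). It is shown in capitals for Il6 (chr5:30013010-30013099, plus strand) and Cxcl3 (chr5:90785968-90786057, plus strand), the cytokine and the chemokine with the largest falls. The palindrome TCACGTGA, the core of the CLEAR element of lysosomal genes, was in 2.37% of the genes with a window, in 6 of 29 lysosomal genes (20.7%), in 15 of 663 genes higher by at least 2-fold (2.26%) and in 4 of 692 genes lower by at least 2-fold (0.578%). It is shown for Gla (chrX:134601173-134601255, minus strand), a lysosomal enzyme that rose.
Il6: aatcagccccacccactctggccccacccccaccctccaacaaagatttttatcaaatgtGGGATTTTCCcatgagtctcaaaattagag
Cxcl3: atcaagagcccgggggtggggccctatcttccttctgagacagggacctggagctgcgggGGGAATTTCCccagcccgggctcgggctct
Gla: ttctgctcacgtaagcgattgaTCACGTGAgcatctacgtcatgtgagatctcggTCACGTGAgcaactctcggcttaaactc
The match begins 44 bases before the start in Il6 and 73 before it in Cxcl3, and those in Gla begin 228 and 195 bases before it. Motifs of other lists were searched in the same way and were in few of their windows. A sterol regulatory element, TCACNCCAC, was in 1 of 17 cholesterol genes (5.88%, against 1.35% of all genes with a window), and the antioxidant response element, TGAC, any 3 bases and GCA, in 2 of 23 NRF2 targets (8.70%, against 3.20%). The cAMP response element, TGACGTCA, was in 1 of 12 immediate early genes (8.33%, against 3.62%), and a site of EGR factors, GCGTGGGCG, in 0 of 12 (against 1.49%). A match describes these letters in these windows, not a site in use.

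Enzymes of nitric oxide, arginine and itaconate metabolism were lower in 11 of 15 cases and higher in 2, with a median of -0.90. Without Mut-Control replicate 2, 1 rose. Nos2, the inducible nitric oxide synthase, had 1.68, 1.74 and 1.83 CPM in Mut-Control and 56.9, 21.6 and 18.3 CPM in Mut (edgeR log2 fold change -4.15 ± 0.79 SE, adjusted p = 0.0122). Mut replicate 1 stood well above the other Mut libraries, and each of those was still far above every Mut-Control library. The log2 fold change was -3.50 without Mut replicate 1, and the adjusted p was 0.0521 to 0.0557 when any 1 Mut-Control library was left out. Slc7a2, a carrier that brings arginine into the cell, had 49.9, 47.1 and 46.7 CPM in Mut-Control and 1234, 1050.0 and 912 CPM in Mut and was 22.1-fold lower (edgeR log2 fold change -4.47 ± 0.15 SE, adjusted p = 1.28e-05). Ass1, which with Asl remakes arginine from citrulline, fell by 2.00 (log2). Asl itself and Odc1 were the 2 members that rose, by at most 0.38 (log2). Acod1, which makes itaconate, fell by 1.24 (log2). Cybb, the catalytic subunit of the phagocyte NADPH oxidase, fell by 1.64 and Sod2, the mitochondrial superoxide dismutase, by 1.94. Arg1, the arginase of alternative activation, did not reach the count filter, with 0.482 to 0.964 CPM in Mut-Control and 0.33 to 1.01 CPM in Mut, while the mitochondrial arginase Arg2 fell by 1.24 (log2).

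The receptor for LPS and its adaptors moved in both directions. Of 20 tested, 10 rose and 6 fell, with a median of 0.16. Tlr4 had 154, 153 and 154 CPM in Mut-Control and 98.7, 91.2 and 86.1 CPM in Mut and was 1.68-fold higher (edgeR log2 fold change 0.75 ± 0.05 SE, adjusted p = 2.13e-13). Cd14, which passes LPS to Tlr4, went the other way with 309, 314 and 287 CPM in Mut-Control and 988, 909.8 and 959 CPM in Mut and was 3.13-fold lower (edgeR log2 fold change -1.65 ± 0.04 SE, adjusted p = 1.74e-24). Neither gene overlapped between the groups. Cd180 and its partner Ly86, a related receptor pair, rose by 1.09 (log2) and 1.54, while Irak3, an inhibitor of TLR signalling, fell by 2.14. Ly96, the partner of Tlr4 that binds LPS, did not pass (log2 fold change 0.15, edgeR adjusted p = 0.301).

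NF-kB subunits and feedback genes were also split, 12 of 27 higher and 13 lower with a median of 0.01. Nfkbiz, a nuclear partner of NF-kB, had 607, 630.4 and 574 CPM in Mut-Control and 186, 175 and 161 CPM in Mut (edgeR log2 fold change 1.80 ± 0.05 SE, adjusted p = 8.19e-23). It was higher in every Mut-Control library. The subunit Rel rose by 1.17 (log2) and the activation antigen Cd83 by 1.92, whereas Cd40, a receptor of the TNF family, had 45.8 to 51.6 CPM in Mut-Control and 231 to 297 CPM in Mut and was 5.2-fold lower, and Traf1 and the survival gene Bcl2a1a fell by 1.33 and 1.80. The subunit Rela did not pass (log2 fold change 0.01, edgeR adjusted p = 0.911).

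Regulators that restrain inflammation were more often higher, 14 of 25 against 7 lower, with a median of 0.39. Bcl6, a transcriptional repressor of inflammatory genes, had 162, 151 and 156 CPM in Mut-Control and 13.97, 15.002 and 16.3 CPM in Mut and was 10.3-fold higher (edgeR log2 fold change 3.37 ± 0.07 SE, adjusted p = 6.58e-27). No library of one group came near the other. Pparg, a nuclear receptor of lipid metabolism, had 81.4 to 85.8 CPM in Mut-Control and 16.1 to 18.8 CPM in Mut and was 4.64-fold higher. Dusp1, the phosphatase of p38 and JNK, had 193 to 225 CPM in Mut-Control and 48.6 to 58.3 CPM in Mut and was 3.91-fold higher. Zfp36, which destabilises cytokine mRNAs, rose by 1.04 (log2) and Il10ra, a chain of the interleukin-10 receptor, by 0.89. Feedback inhibitors of JAK-STAT signalling were the members that fell most, Socs2 by 4.24 on the log2 scale, Socs1 by 3.32 and Cish by 2.53. Immediate early genes rose in 11 of 17 cases and fell in 4, with a median of 0.73. Besides Egr1, Fos had 21.01 to 22.9 CPM in Mut-Control and 6.15 to 7.5 CPM in Mut, Myc 46.7 to 55.8 CPM in Mut-Control and 19.2 to 23.8 CPM in Mut and the antiproliferative gene Btg2 107 to 116 CPM in Mut-Control and 39.1 to 41.2 CPM in Mut, all higher without overlap, while Fosl1 fell by 1.58 (log2) and Jun by 0.20.

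**Figure D3:**
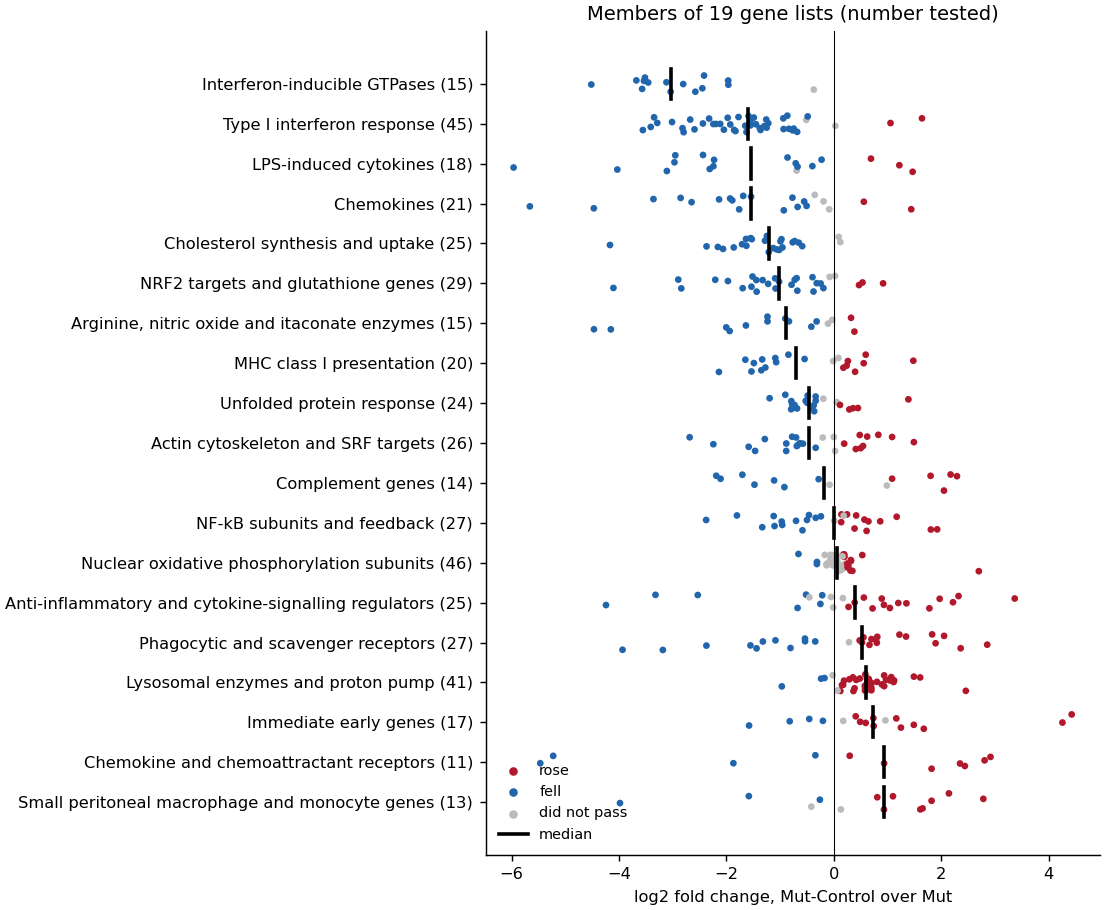
Log2 fold change (Mut-Control over Mut) of the tested members of 19 gene lists, one point a gene, with a black bar at each list's median. Interferon-inducible GTPases (median -3.04), the type I interferon response (-1.59), cytokines (-1.55), chemokines (-1.54) and cholesterol synthesis (-1.21) lie left of 0, chemoattractant receptors (0.93) and lysosomal genes (0.59) right of it.

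Sensors of viral nucleic acids were more often lower, 13 of 20 against 3 higher, with a median of -0.57. Mut replicate 1 was the highest Mut library for 11 of the 13 members that fell. Ddx58, the RNA sensor RIG-I, had 43.04, 42.9 and 45.4 CPM in Mut-Control and 189.7, 159 and 132 CPM in Mut (edgeR log2 fold change -1.86 ± 0.16 SE, adjusted p = 0.000316). Dhx58, its relative LGP2, fell by 1.55 (log2), Ifi203 by 1.54 and Ifi205 by 1.34. The cytosolic DNA sensor Cgas fell by 0.67 (log2), while its downstream adaptor Tmem173, which is STING, rose by 0.37 and Aim2, the DNA sensor of an inflammasome, had 59.2, 47.1 and 46.2 CPM in Mut-Control and 35.6, 36.5 and 27.6 CPM in Mut and rose by 0.64. With Tlr9 these were the 3 members that rose. Of the endosomal RNA receptors, Tlr7 fell by 1.00 (log2) and Tlr3 did not pass (log2 fold change -0.24, edgeR adjusted p = 0.122). Irf3 and Unc93b1, which carry and assist these signals, did not pass (Irf3 log2 fold change 0.03, edgeR adjusted p = 0.735; Unc93b1 log2 fold change 0.03, edgeR adjusted p = 0.594).

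Molecules that adenoviruses can attach to or enter by changed unevenly, with 4 of 14 higher and 8 lower. The integrin subunits Itgb5 and Itgb3, which bind the virus capsid with alpha V, both rose. Itgb5 had 146 to 161 CPM in Mut-Control and 44.6 to 46.01 CPM in Mut and was 3.45-fold higher, and Itgb3 had 43.7 to 49.9 CPM in Mut-Control and 13.2 to 15.2 CPM in Mut and was 3.27-fold higher. Marco, a scavenger receptor, had 2.16, 2.6 and 1.16 CPM in Mut-Control and 28.96, 29.2 and 33.2 CPM in Mut and was 15.3-fold lower (edgeR log2 fold change -3.93 ± 0.17 SE, adjusted p = 3.43e-19). Cxadr, the coxsackie and adenovirus receptor, fell by 1.48 (log2), Dsg2, a desmosomal cadherin, by 4.86, and the scavenger receptors Scarf1 and Msr1 by 1.16 and 0.54.

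Genes of the resident, large peritoneal macrophage fell more often than they rose, 12 against 7 of 24, with a median of -0.42. Gata6, the transcription factor that defines them, had 4.95, 2.6 and 3.47 CPM in Mut-Control and 3.72, 3.58 and 3.88 CPM in Mut, with groups that overlapped, and was not called (edgeR log2 fold change 0.00 ± 0.24 SE, adjusted p = 0.999). F10, coagulation factor X, had 139, 133 and 134 CPM in Mut-Control and 1380.0, 1241 and 1232 CPM in Mut and was 9.46-fold lower (edgeR log2 fold change -3.24 ± 0.05 SE, adjusted p = 7.66e-30). Fn1, fibronectin, had 157 to 162 CPM in Mut-Control and 972 to 1151 CPM in Mut, and Serpinb2, an inhibitor of plasminogen activators, had 3.47 to 5.88 CPM in Mut-Control and 68.8 to 82.4 CPM in Mut (it shares 12.4% of its exonic length with another gene on the same strand). Slpi, a protease inhibitor, fell by 3.33 (log2), the acute phase protein Saa3 by 2.38, Timd4, a receptor for phosphatidylserine, by 2.37 and Adgre1, which encodes F4/80, by 0.95. Other genes of the same cells rose: Cd5l, an inhibitor of macrophage apoptosis, by 1.82 (log2), Vsig4, a complement receptor, by 1.13 and Cd93 by 1.89.

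Genes of small peritoneal macrophages and monocytes rose in 8 of 13 cases and fell in 3, with a median of 0.93. Ace, the angiotensin-converting enzyme, had 11.02 to 15.4 CPM in Mut-Control and 2.02 to 4.04 CPM in Mut, Folr2, a folate receptor, 23.8 to 29.5 CPM in Mut-Control and 7.43 to 8.99 CPM in Mut, and Mrc1, the mannose receptor, 219.7 to 243 CPM in Mut-Control and 130.5 to 137 CPM in Mut, all higher in each Mut-Control library. Csf1r, the receptor for the macrophage growth factor Csf1, fell by 0.26 (log2). Among core macrophage genes 6 of 15 rose and 5 fell. Fcgr1, the high-affinity receptor for immunoglobulin G, had 25.8 to 29.1 CPM in Mut-Control and 6.77 to 9.48 CPM in Mut and rose by 1.83 (log2), whereas Lyz2 (log2 fold change 0.01, edgeR adjusted p = 0.763), Spi1 (log2 fold change 0.09, edgeR adjusted p = 0.0842) and Ptprc (log2 fold change -0.07, edgeR adjusted p = 0.138) did not pass. Alternative activation genes were divided, 7 of 14 higher and 6 lower. The beta-glucan receptor Clec7a had 1131 to 1206 CPM in Mut-Control and 428 to 486 CPM in Mut and was 2.53-fold higher, and Il4ra, the receptor chain for interleukin-4, had 72.7 to 84.3 CPM in Mut-Control and 194 to 214 CPM in Mut and was 2.56-fold lower.

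Receptors and bridging proteins of phagocytosis rose in 15 of 27 cases and fell in 11, with a median of 0.52. Gas6, which links phosphatidylserine on dying cells to receptors of the TAM family, had 68.9, 63.9 and 65.9 CPM in Mut-Control and 9.36, 7.95 and 10.1 CPM in Mut and was 7.23-fold higher (edgeR log2 fold change 2.85 ± 0.09 SE, adjusted p = 6.44e-22). Fcgr4, an activating Fc receptor, had 59.1 to 65.6 CPM in Mut-Control and 10.7 to 14.9 CPM in Mut, and Siglec1, which binds sialic acid, had 231 to 270.2 CPM in Mut-Control and 59.3 to 65.1 CPM in Mut. Both were higher in every Mut-Control library. Clec4e, the Mincle receptor for mycobacterial glycolipid, had 614, 583 and 558 CPM in Mut-Control and 5597, 5139 and 5268 CPM in Mut and was 9.09-fold lower (edgeR log2 fold change -3.18 ± 0.04 SE, adjusted p = 5.02e-30). Mertk, the TAM receptor for Gas6 on macrophages, did not pass (log2 fold change 0.28, edgeR adjusted p = 0.0541). Of the complement genes 5 of 14 rose and 7 fell. The 3 chains of C1q, the recognition molecule of the classical pathway, rose together, C1qa by 2.05 (log2), C1qb by 2.17 and C1qc by 2.29. C1qc had 259, 275 and 255 CPM in Mut-Control and 59.5, 50.9 and 52.1 CPM in Mut, with no overlap. Cfp, properdin of the alternative pathway, rose by 1.80 (log2), whereas C1s1, a protease of the classical pathway, fell by 2.19 and Cfb, factor B, by 2.11. Cfb shares 79.5% of its exonic length with another gene on the same strand.

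In antigen presentation, the proteasome and peptide loading genes of MHC class I fell and several class I heavy chains rose, 11 of 20 being lower and 7 higher. Tap1 and Tap2, the peptide transporter, fell by 1.49 (log2) and 1.53, Psmb10 and Psme2 of the immunoproteasome by 1.35 and 1.65, and Nlrc5, the class I transactivator, by 2.14. B2m, the light chain, rose by 0.59 (log2) and H2-Q6 by 1.48, while H2-K1 did not pass (log2 fold change 0.08, edgeR adjusted p = 0.0674), and reads of the class I genes may be shared between copies. Mut replicate 1 was the highest Mut library for 10 of the 11 members that fell. Of 11 genes on the class II presentation list 5 fell and 3 rose. The class II chains H2-Ab1, H2-Aa and H2-Eb1 fell, as did Cd74 and Ciita. Those that rose, Cd80, Ctss and Ifi30, are not class II chains, and H2-DMa, H2-DMb1 and Cd86 did not pass. H2-Ab1, a class II beta chain, had 41.7, 42.8 and 44.3 CPM in Mut-Control and 136, 105 and 96.5 CPM in Mut (edgeR log2 fold change -1.37 ± 0.14 SE, adjusted p = 0.000233). Mut replicate 1 was the highest Mut library for all 5 members of this list that fell, and without it 5 members fell and 5 rose. Ciita, the class II transactivator, fell by 1.18 (log2). Cd74, the invariant chain, fell by 0.72 (log2), a call that was lost when any 1 Mut-Control library was left out (adjusted p 0.0673 to 0.0769). Ctss, the protease that trims the invariant chain, rose by 0.64 (log2). Of 12 tested genes on a list that mixes T cell costimulators with inhibitory molecules such as Havcr2 and Cd274, 6 rose and 3 fell. Havcr2, which is TIM-3, had 21.1, 24.2 and 20.9 CPM in Mut-Control and 1.67, 2.02 and 2.72 CPM in Mut and was 9.97-fold higher, and Cd80, a ligand of Cd28, had 19.7 to 21.2 CPM in Mut-Control and 5.93 to 8.46 CPM in Mut and was 3.08-fold higher. Cd274, which is PD-L1, had 281 to 303 CPM in Mut-Control and 838 to 1091 CPM in Mut and was 3.31-fold lower.

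Lysosomal enzymes and subunits of the proton pump rose broadly. Of 41 tested, 35 rose and 3 fell, with a median of 0.59, which is smaller in size than the interferon and cytokine medians. Lgmn, the protease legumain, had 1430.3, 1482 and 1438 CPM in Mut-Control and 459.9, 481 and 494 CPM in Mut and was 3.04-fold higher (edgeR log2 fold change 1.60 ± 0.04 SE, adjusted p = 2.24e-25). Atp6v0d2, a subunit of the proton pump, had 1373, 1402 and 1389 CPM in Mut-Control and 477, 510.1 and 502 CPM in Mut and was 2.81-fold higher (edgeR log2 fold change 1.49 ± 0.04 SE, adjusted p = 1.25e-24). In both genes the groups stood clearly apart. Gla, which cleaves alpha-galactose from glycolipids, had 377 to 399 CPM in Mut-Control and 174 to 184 CPM in Mut and the cathepsin Ctsl 2459 to 2568 CPM in Mut-Control and 1198 to 1241 CPM in Mut, with log2 fold changes of 1.12 and 1.04. The transcription factors Tfeb and Tfe3, which act on the CLEAR element, rose by 0.35 (log2) and 0.36, and their relative Mitf fell by 0.97.

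Genes of lipid-loaded macrophages rose in 15 of 24 cases and fell in 6, with a median of 0.53. Fabp4, a fatty acid carrier, had 264, 253 and 237 CPM in Mut-Control and 45.6, 51.2 and 46.2 CPM in Mut and was 5.29-fold higher (edgeR log2 fold change 2.40 ± 0.06 SE, adjusted p = 1.99e-25). The lipid droplet protein Plin2 had 1057 to 1091 CPM in Mut-Control and 332 to 357 CPM in Mut and was 3.16-fold higher. Trem2, a lipid receptor, rose by 1.19 (log2), Apoe, the apolipoprotein, by 0.93 and Spp1, osteopontin, by 0.36, whereas the cystatin Cst7 had 0.289 to 0.578 CPM in Mut-Control and 9.29 to 12.3 CPM in Mut and fell by 4.49. Of the targets of LXR, the nuclear receptor for oxysterols, 7 of 14 rose and 5 fell. Abcg1, which exports cholesterol, had 539, 549 and 544 CPM in Mut-Control and 155, 168 and 154 CPM in Mut and was 3.43-fold higher (edgeR log2 fold change 1.78 ± 0.04 SE, adjusted p = 6e-25), and Nr1h3, which encodes LXR alpha, rose by 1.34 (log2). Scd1 and Scd2, desaturases, fell by 1.81 (log2) and 1.90, and Abca1, the other cholesterol exporter, did not pass (log2 fold change 0.04, edgeR adjusted p = 0.539).

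Cholesterol synthesis and uptake was lower along most of the pathway. Of 25 genes tested, 23 fell and none rose, with a median of -1.21, or -1.22 without Mut replicate 1. Lss, which closes the sterol rings, had 40.2, 43.9 and 40.6 CPM in Mut-Control and 125, 129 and 134 CPM in Mut and was 3.11-fold lower (edgeR log2 fold change -1.64 ± 0.06 SE, adjusted p = 7.68e-21). The groups did not overlap, and here Mut replicate 3 was the highest library, as for 19 of the 23 members that fell. Hsd17b7, a late enzyme, had 16.4 to 18.6 CPM in Mut-Control and 74.2 to 81.2 CPM in Mut, and Mvd of the mevalonate steps 20.8 to 25.6 CPM in Mut-Control and 88.04 to 105 CPM in Mut. Insig1, a feedback regulator, fell by 0.96 (log2). Dhcr7 and Ebp did not pass (Dhcr7 log2 fold change 0.12, edgeR adjusted p = 0.282; Ebp log2 fold change 0.09, edgeR adjusted p = 0.33). Fatty acid genes were mixed, 10 of 27 higher and 12 lower. Fads2, the delta-6 desaturase, had 2.63 to 2.99 CPM in Mut-Control and 25.6 to 33.7 CPM in Mut and was 10.6-fold lower, Acsl1, which activates long-chain fatty acids, was 4.07-fold lower, and the droplet protein Hilpda was 3.96-fold higher.

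Targets of the oxidative stress factor NRF2 fell in 24 of 29 cases and rose in 3, with a median of -1.02. Slc7a11, the cystine carrier that feeds glutathione synthesis, had 145, 143 and 144 CPM in Mut-Control and 2595, 2475 and 2366 CPM in Mut and was 17.2-fold lower (edgeR log2 fold change -4.10 ± 0.04 SE, adjusted p = 2.29e-34). All Mut libraries stood far above all Mut-Control libraries. Gclm, the modifier subunit of the rate-limiting step of glutathione synthesis, had 47.9, 49.5 and 50.4 CPM in Mut-Control and 349.7, 366 and 387 CPM in Mut and was 7.45-fold lower (edgeR log2 fold change -2.90 ± 0.05 SE, adjusted p = 2.63e-28). Nqo1, a quinone reductase, fell by 1.97 (log2), Hmox1, heme oxygenase, by 1.51, Txnrd1, thioredoxin reductase, by 1.44, Prdx1, a peroxidase, by 1.70 and the glutathione conjugate pump Abcc1 by 2.21. Nfe2l2, which encodes NRF2, rose by 0.53 (log2) and the glutathione peroxidase Gpx1 by 0.92, and Gpx4 did not pass (log2 fold change 0.02, edgeR adjusted p = 0.801). Mut replicate 3 was the highest Mut library for 20 of the 24 members that fell. Iron and metal genes fell in 11 of 18 cases and rose in 4. The ferritin heavy chain Fth1 fell by 0.73 (log2), while the iron exporter Slc40a1, the transferrin receptor Tfrc and the endosomal ferrireductase Steap3 rose by 1.27, 0.68 and 2.07. Cp, the ferroxidase ceruloplasmin, fell by 3.55 (log2) and Slc39a14, a metal importer, by 2.06.

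Chaperones of the endoplasmic reticulum were lower, 17 of 24 genes of the unfolded protein response falling and 5 rising, with a median of -0.46. Hspa5, the chaperone BiP, had 434, 446 and 437 CPM in Mut-Control and 778, 749.6 and 765 CPM in Mut (edgeR log2 fold change -0.80 ± 0.04 SE, adjusted p = 1.12e-17). Manf and Pdia6 fell by 1.20 (log2) and 0.91 and the transcription factor Xbp1 by 0.77, whereas the sensor Atf6 had 212 to 241 CPM in Mut-Control and 80.2 to 91.8 CPM in Mut and was 2.61-fold higher. Of the targets of ATF4, 13 of 24 fell and 4 rose. Phgdh, the first enzyme of serine synthesis, fell by 2.22 (log2) and the amino acid carrier Slc7a5 by 0.98, while the stress genes Gdf15 and Ddit3 rose by 0.92 and 1.10 and Atf4 itself did not pass (log2 fold change -0.04, edgeR adjusted p = 0.422). Of the p53 targets 11 of 19 rose and 3 fell, with Bbc3, the death gene PUMA, at 1.28 and Sesn1 at 1.16 among those that rose. The 3 that fell were Fas (log2 fold change -0.81), Aen and Bax. Cdkn1a and Pmaip1 were among the 5 that did not pass.

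Eicosanoid genes differed by enzyme, and 8 of 15 rose and 6 fell. Ptgs2, the inducible cyclooxygenase, had 151, 155 and 140.3 CPM in Mut-Control and 1278, 896 and 711 CPM in Mut (edgeR log2 fold change -2.68 ± 0.27 SE, adjusted p = 0.0012). Ptges, the inducible synthase of prostaglandin E2, had 14.5, 10.8 and 10.5 CPM in Mut-Control and 252, 233 and 233 CPM in Mut and was 19.8-fold lower (edgeR log2 fold change -4.30 ± 0.08 SE, adjusted p = 5.17e-23). Hpgds, the synthase of prostaglandin D2, went the other way with 209, 202 and 206 CPM in Mut-Control and 26.5, 24.3 and 29.7 CPM in Mut and was 7.63-fold higher (edgeR log2 fold change 2.93 ± 0.06 SE, adjusted p = 1.84e-26). All 3 were without overlap between the groups. The constitutive cyclooxygenase Ptgs1 rose by 1.52 (log2) and Alox5ap, which helps make leukotrienes, by 1.42.

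Secreted proteases, growth factors and integrins changed with gene-specific signs. Of 15 matrix metalloproteinases and inhibitors 6 rose and 6 fell, of 15 growth factors 8 rose and 4 fell, and of 16 integrin subunits 5 rose and 9 fell. Adam8, a membrane metalloprotease, had 664, 704 and 692 CPM in Mut-Control and 79.6, 78.3 and 84.8 CPM in Mut and was 8.5-fold higher (edgeR log2 fold change 3.09 ± 0.05 SE, adjusted p = 4.19e-30), and the inhibitor Timp2 was 3.26-fold higher. Mmp9, a gelatinase, had 11.7, 10.9 and 10.99 CPM in Mut-Control and 79.7, 99.5 and 98.6 CPM in Mut and was 8.24-fold lower (edgeR log2 fold change -3.04 ± 0.09 SE, adjusted p = 2.73e-21), and the membrane collagenase Mmp14 was 4.33-fold lower. Igf1, insulin-like growth factor 1, had 431 to 441 CPM in Mut-Control and 116 to 138 CPM in Mut and was 3.35-fold higher, and Hgf, hepatocyte growth factor, and Pdgfa rose by 3.01 (log2) and 1.82. Inhba, the subunit of activin A, had 24.1, 22.6 and 23.8 CPM in Mut-Control and 445, 361 and 294 CPM in Mut and was 15.5-fold lower (edgeR log2 fold change -3.95 ± 0.22 SE, adjusted p = 0.00012). Among integrins, the laminin-binding Itga6 was 5.05-fold higher, the collagen-binding Itga1 was 14.1-fold lower and Itgb8, which activates TGF-beta, was 12.8-fold lower. Actin and adhesion genes fell in 14 of 26 cases and rose in 9, with the bundling protein Fscn1 at 3.18 to 6.63 CPM in Mut-Control and 32.5 to 36.01 CPM in Mut.

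Genes of oxidative phosphorylation mostly did not pass. Of 46 nuclear genes of the respiratory chain and its regulators 30 did not pass, 13 rose and 3 fell, with a median of 0.06. The count of 3 that fell was 5 without Mut replicate 1 and 1 without Mut-Control replicate 1, without Mut replicate 3 or with DESeq2. Sdha of complex II rose by 0.31 (log2) and Cox5a of complex IV fell by 0.32, while the coactivator Ppargc1a rose by 2.70. Glycolysis and HIF-1 target genes rose in 9 of 33 cases and fell in 13, with hexokinase Hk2 2.25-fold lower and the stress gene Ndrg1 4.23-fold higher. Cell cycle genes mostly did not pass, 13 of 25, with 8 higher and 4 lower. Those that did not pass included Top2a, Cdk1, Ccnb1, Ccna2, Plk1 and Aurka, genes of dividing cells. Mki67, a marker of dividing cells, had 54.2, 56.1 and 59.9 CPM in Mut-Control and 193, 188 and 164 CPM in Mut and was 3.18-fold lower (edgeR log2 fold change -1.67 ± 0.06 SE, adjusted p = 7.11e-19), and the replication clamp Pcna was 1.8-fold higher. The count of 8 cell cycle genes that rose was 5 without Mut-Control replicate 3, without Mut replicate 3 or with DESeq2. In glucocorticoid-responsive genes 5 of 10 rose and 4 fell, with Tsc22d3, which is GILZ, higher by 1.35 (log2) and Fkbp5 lower by 1.67. Clock genes rose in 7 of 16 cases and fell in 3, Nr1d2 rising by 1.05 (log2) and Nfil3 falling by 1.33.

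Of the remaining lists, 9 of 23 inflammasome and cell death genes rose and 8 fell. Gsdmd, the pore protein of pyroptosis, fell by 0.72 (log2) and Mlkl, that of necroptosis, by 1.59, while Gsdme rose by 2.64 and Nlrp3 did not pass (log2 fold change 0.07, edgeR adjusted p = 0.165). Among retinoic acid genes 3 of 11 rose and 5 fell, with Dhrs3, a retinaldehyde reductase, 3.57-fold higher and the receptor Rarg 1.67-fold lower. Among TGF-beta genes 5 of 19 rose and 9 fell, with the receptor Tgfbr2 3.3-fold higher.

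**Figure D4:**
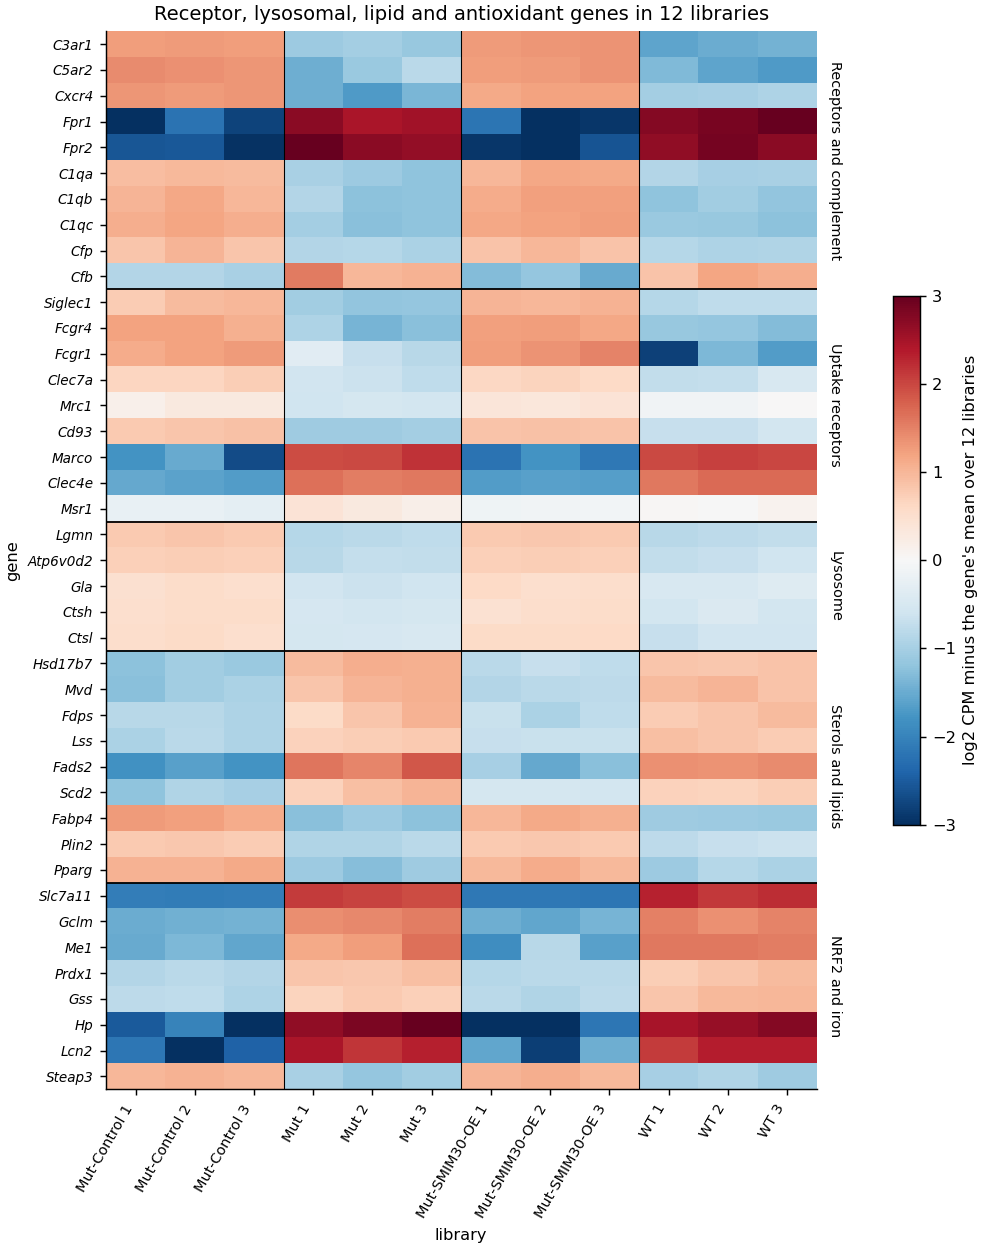
Log2 CPM minus the gene's mean over 12 libraries for 41 genes (rows) in each library of Mut-Control, Mut, Mut-SMIM30-OE and WT (columns), with colour limits at -3 and 3. The 2 virus groups share 1 pattern and the 2 groups without virus the other, and for most of these genes replicates within a group differ little beside that.

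The second pair, Mut-SMIM30-OE against WT, shares no library with the first but also contrasts virus and stated culture schedule, next to genotype and overexpression. There 7566 of 12899 genes passed (58.7%), 3724 higher in Mut-SMIM30-OE (28.9%) and 3842 lower (29.8%), with 2049 of at least 2-fold (15.9%, 7.27% higher and 8.61% lower) and 8113 without overlap between the groups (62.9%). Ribosomal RNA genes took 0.218 to 0.318% of the counts in Mut-SMIM30-OE and 1.74 to 2.49% in WT, and the part of this difference in the calls of either pair was not tested. Of 12580 genes tested in both pairs, 5737 passed in both with the same sign, which is 83.6% of the calls of the first pair and 75.8% of those of the second, and 34 passed with opposite signs. Among the 1901 genes of at least 2-fold in the first pair that were tested in both, 1764 (92.8%) passed with the same sign in the second. The 1 gene of these with the opposite sign was Mid1, a microtubule-associated ubiquitin ligase, singled out after its values were seen. Its log2 fold change was 1.64 in the first pair and -0.88 in the second. Its level was low, with an average log2 CPM of 0.88 in the first pair, under the level of 2 used for naming genes. Across genes, which are not independent replicates, the log2 fold changes of the pairs had a Pearson correlation of 0.914 and a Spearman correlation of 0.868.

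**Figure D5:**
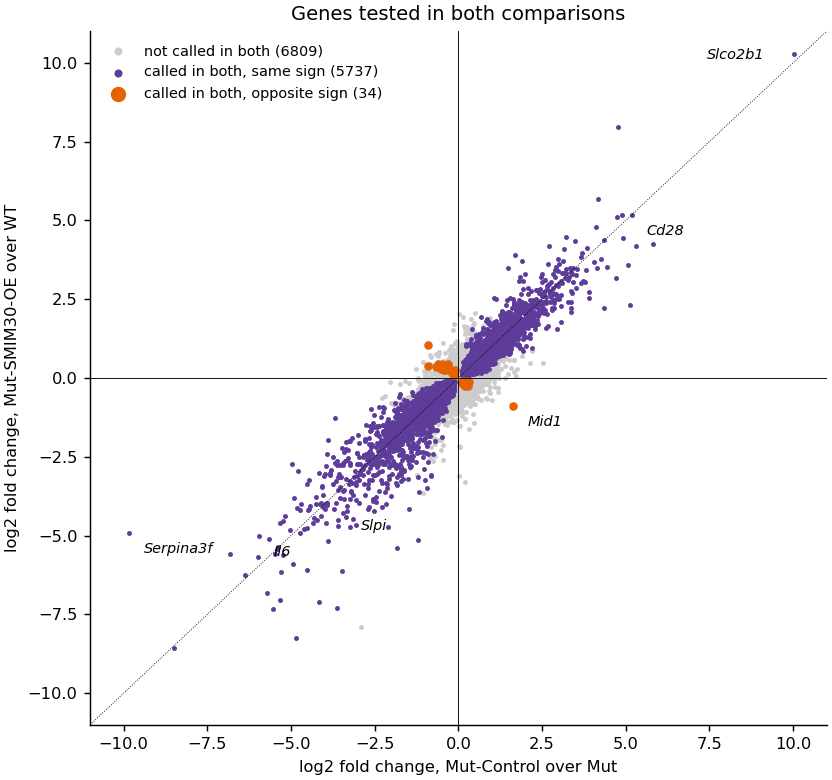
Log2 fold change of Mut-Control over Mut plotted against that of Mut-SMIM30-OE over WT for 12580 genes, coloured by calls in both pairs with the same sign (5737), with opposite signs (34) or not in both (6809). The points lie along the rising diagonal.

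Side by side, most gene groups had the same sign in both pairs. The median log2 fold change of interferon-inducible GTPases was -3.04 in the first pair and -2.30 in the second, that of the type I interferon response -1.59 and -1.17, that of chemokines -1.54 and -1.21, that of cholesterol synthesis -1.21 and -0.96, that of NRF2 targets -1.02 and -1.16 and that of lysosomal genes 0.59 and 0.54. Cytokines had -1.55 in the first pair and -0.72 in the second. Il6 had 2.08, 0.667 and 1.33 CPM in Mut-SMIM30-OE and 42.6, 42.9 and 42.4 CPM in WT, with a log2 fold change of -5.02 against -5.96 in the first pair. For Il1b the values were 331, 363 and 346 CPM in Mut-SMIM30-OE and 615, 653 and 705 CPM in WT, with -0.93 against -2.24. Tnf had 1763, 1840.4 and 1824 CPM in Mut-SMIM30-OE and 1784, 1889.6 and 1820.4 CPM in WT and -0.02 against -0.23. Nos2 had 1.61, 2.67 and 1.25 CPM in Mut-SMIM30-OE and 14.1, 19.2 and 12.4 CPM in WT, again lower in each virus library, with -3.02 against -4.15. Slco2b1, which had no counts in Mut, had 12.2, 14.97 and 14.9 CPM in Mut-SMIM30-OE and no counts in WT. Gene by gene, C3ar1 had 2.80 in the second pair, Lgmn 1.58, Lss -1.51, Slc7a11 -4.36, Clec4e -3.32 and Cd28 5.17. Signs were opposite in the 2 pairs, with both calls passing, for Lpl, lipoprotein lipase (-0.41 in the first and 0.26 in the second), for the integrin Itgax (-0.11 and 0.24) and for Il4i1, an amino acid oxidase (-0.91 and 0.38), all 3 singled out after their values were seen. Since the pairs differ in genotype and in the vector, the differences between them were not tested.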

How the data were processed

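RNA of 18 strand-specific libraries in 6 groups of 3 was sequenced, and the 6 libraries of Mut-Control and Mut carry the comparison. The authors deposited raw counts, one file a library. Per the file headers, featureCounts 2.0.3 counted read pairs in exons by gene, in reverse-stranded mode, against GENCODE M25 (GRCm38). Reads were processed with fastp, FastQC, HISAT2 and featureCounts, per the submitters' processing notes, which also name DESeq2 3.1.0. Samples were taken from the file names as deposited, whose library numbers differ from those in the file headers. Of 55401 gene identifiers, 55141 matched a symbol of GENCODE M21.

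Counts were tested with edgeR 4.0.16 in R 4.3.3 (filterByExpr, TMM scaling, robust quasi-likelihood F test, Benjamini-Hochberg adjustment over all genes tested, threshold 0.05), for Mut-Control against Mut and for Mut-SMIM30-OE against WT, each on its own 6 libraries. Fold changes are Mut-Control over Mut and Mut-SMIM30-OE over WT, with standard errors. Each standard error is the size of the log2 fold change divided by the square root of its quasi-likelihood F statistic. CPM are TMM-scaled over the 12 macrophage libraries, which shifts them by -0.0049 and 0.0022 on the log2 scale against the scaling of each comparison. The script was tested on simulated counts. Alternatives were other scalings and filters, DESeq2 1.42.0, limma-voom (limma 3.58.1), a fit of all 18 libraries, a replicate block and each library left out in turn.

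The comparison and the 52 gene lists were chosen with earlier results of these data known. Lists are described by counts and medians beside all genes, and a gene may be in several lists. Genes were named by a rule: Smim30, Tnf, Il1b, Il6, Nos2, Cxcl10, Arg1 and Gata6, the 15 largest rises and falls (average log2 CPM 2 or more, groups without overlap), and up to 6 called members of each list with the largest changes at that level. Members named beyond it, among them those that did not pass, were chosen after their values were seen and are given with their values. Some genes that the rule names are not reported here. Replicate libraries differed beyond counting noise. Intervals and detection limits (3 read pairs) cover counting error only.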

Additional observations from a re-analysis of the deposited data

How the results depend on the processing

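The number of genes called ran from 5937 to 7442 over the alternatives against 6862, that of at least 2-fold from 1923 to 2495 against 1977, and, leaving out each library in turn, 6274 to 6666 were called. In the second pair the calls ran from 6565 to 7886 against 7566. The replicate number as a block gave 6688 calls. No pairing by number was seen, as the deviations of same-numbered libraries correlated at -0.019, -0.051 and -0.14 and those of other numbers at -0.049 to 0.093. With 3 libraries a group these values cannot exclude a shared origin. Of 3934 alternative fits of 281 named genes, 3895 kept direction and side of the threshold, 31 lost the call and 8 changed sign. The calls were lost for 2610001J05Rik, Cycs (9 fits each), Rara (4), Cd74, Nos2 (3 each), Aldh1a2 (2) and Ndufs7 (1). The sign changes were all of Gata6, which was never called: -0.006 with RLE scaling, -0.001 with a filter of 1 CPM in 3 libraries, -0.012 with DESeq2, -0.042 with limma-voom, -0.039 with the block, and -0.298, -0.002 and -0.029 without Mut-Control replicate 1, Mut replicate 1 and Mut replicate 2 (highest 0.186, without Mut-Control replicate 2). Fitted changes of genes near 0 counts depended on the tool, Slco2b1 being 9.32 with DESeq2 and 7.88 with limma-voom and Serpina3f -7.77 with limma-voom. Slamf1 was -6.24 without Mut-Control replicate 1. The cause of these shifts was not tested. Of 1456 list counts under 14 alternatives, 1427 were within 1.5 times. With 3 libraries a group, exact permutation of labels cannot go under p = 0.1, and no such test was used.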
